A study of Homo sapiens with 12 samples.

Results

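The genes described here are 9: the enzymes B4GALNT1, ST8SIA1, ST3GAL5, UGCG and B4GALT6, which build the ganglioside GD2, and the surface antigens L1CAM, NCAM1, CD276 and GPC2. They were chosen by name, through the Ensembl identifiers of GENCODE release 29, from a table of 58051 genes, and 8 of the 9 passed the filter on low counts that left 17774 genes for testing; B4GALT6 did not. Polyadenylated RNA of NB-1, a human neuroblastoma cell line, was sequenced after 48 h with BEZ-235 & SAHA (0.5 µM of each), with BEZ-235 alone (0.5 µM), with SAHA alone (0.5 µM) or with the solvent DMSO. BEZ-235 is an inhibitor of PI3K and mTOR, kinases of the growth factor response, and SAHA (also called vorinostat) of histone deacetylases. Each of the 4 groups held 3 libraries labelled as biological replicates, and all 12 came from this 1 line, with 1 dose and 1 time per drug, so the values describe this line alone. The labels name no separate clones or culture days, so the p-values measure the spread between these libraries.

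GD2 is a glycolipid of the outer cell membrane that most neuroblastomas carry at high density, and it is the target of the antibodies used against this tumour. Its synthesis starts in the Golgi, where UGCG adds glucose to ceramide, and B4GALT5 or B4GALT6 then adds galactose to give lactosylceramide. ST3GAL5 adds a sialic acid to make GM3, ST8SIA1 adds a further one to make GD3, and B4GALNT1 adds N-acetylgalactosamine, which turns GD3 into GD2 and GM3 into GM2. L1CAM, NCAM1, CD276 (B7-H3) and GPC2 are membrane proteins, each pursued as a target of antibodies or engineered T cells in neuroblastoma. RNA levels were measured here; neither the GD2 on the cells nor the surface protein was.

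Depth was 17662944 to 79543539 counts per library, the median being 20407979, and the deepest was SAHA replicate 2. Markers of adrenergic neuroblastoma were present: all 12 passed the filter, and their summed level was 2482 to 2895 CPM (counts scaled by the library total) with BEZ-235 & SAHA, 1977 to 2183 CPM with BEZ-235, 2155 to 2450 CPM with SAHA and 2028 to 2313 CPM with DMSO. All 10 mesenchymal and fibroblast markers passed too, with sums of 2431 to 2812 CPM with BEZ-235 & SAHA, 1554 to 1638 CPM with BEZ-235, 2630 to 2752 CPM with SAHA and 1753 to 1939 CPM with DMSO. Most of each sum was VIM, at 2324 CPM with BEZ-235 & SAHA, 1330 CPM with BEZ-235, 1934 CPM with SAHA and 1423 CPM with DMSO. Of the 10, 5 were higher and 4 lower with both drugs against DMSO, 1 and 3 with BEZ-235, and 7 and 1 with SAHA. The 12 adrenergic markers gave 6 and 3, 5 and 4, and 3 and 3, all at an adjusted p under 0.05. Of all tested genes 33.2% were higher and 31.2% lower with both drugs, 25.5% and 25.4% with BEZ-235, and 22.2% and 20.9% with SAHA. Any link of these markers to the changes of the antigens was not tested. Of 8 Schwann and glial markers 6 passed, with sums of 333 to 346 CPM with BEZ-235 & SAHA, 304 to 344 CPM with BEZ-235, 313 to 339 CPM with SAHA and 187 to 196 CPM with DMSO, and SOX10 was at 0 in every library. Nearly all of this sum was PMP22, at 184 to 341 CPM, and no other marker of the list exceeded 4.83 CPM. None of the 8 leukocyte markers passed, and their sums stayed at or below 1.44 CPM. The 3 libraries with both drugs stood apart from the other 9 in how counts followed GC content: their slopes were 0.197, 0.328 and 0.450 log2 units per 10% GC, against -0.215 to 0.000345 elsewhere. In BEZ-235 & SAHA against DMSO the median log2 fold change was -0.32 for genes with transcripts under 45% GC and 0.38 for those over 55% GC, and a correction for GC content and transcript length brought these to 0.07 and 0.01. The trend covers that whole group and no other, so it cannot be told apart from the treatment, and the corrected value (below, "corrected") stands beside each result of the 8 tested genes whose call or direction it changed, and beside other results as named.

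GC content also separates the genes described here. The longest transcripts of ST8SIA1, UGCG and ST3GAL5 hold 39.8%, 40.9% and 44.2% G and C, that of NCAM1 holds 48.6%, and those of B4GALNT1, L1CAM, CD276 and GPC2 hold 58.3%, 60.0%, 61.0% and 61.2%. A window around 1 RefSeq start site each of UGCG, L1CAM and GPC2 is shown because these 3 genes had the largest differences between both drugs and BEZ-235 alone before the correction. Each runs from 250 bases before to 50 bases after a start in build GRCh38.p14, in the direction of transcription. Capitals mark a GC box (GGGCGG or, on the other strand, CCGCCC), the letters that SP1-type factors bind.
UGCG, chr9:111896564-111896863, plus strand: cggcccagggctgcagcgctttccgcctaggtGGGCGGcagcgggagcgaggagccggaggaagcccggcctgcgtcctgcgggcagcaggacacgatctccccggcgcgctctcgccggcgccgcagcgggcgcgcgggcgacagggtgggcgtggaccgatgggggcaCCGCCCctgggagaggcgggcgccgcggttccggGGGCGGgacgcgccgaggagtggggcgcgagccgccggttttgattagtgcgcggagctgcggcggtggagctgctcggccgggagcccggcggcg
L1CAM, chrX:153875895-153876194, minus strand: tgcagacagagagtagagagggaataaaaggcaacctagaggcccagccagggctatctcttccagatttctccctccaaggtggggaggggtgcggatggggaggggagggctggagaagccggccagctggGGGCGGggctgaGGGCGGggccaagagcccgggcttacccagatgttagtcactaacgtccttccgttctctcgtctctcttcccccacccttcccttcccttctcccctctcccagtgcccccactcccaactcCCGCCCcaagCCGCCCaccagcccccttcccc
GPC2, chr7:100177332-100177631, minus strand: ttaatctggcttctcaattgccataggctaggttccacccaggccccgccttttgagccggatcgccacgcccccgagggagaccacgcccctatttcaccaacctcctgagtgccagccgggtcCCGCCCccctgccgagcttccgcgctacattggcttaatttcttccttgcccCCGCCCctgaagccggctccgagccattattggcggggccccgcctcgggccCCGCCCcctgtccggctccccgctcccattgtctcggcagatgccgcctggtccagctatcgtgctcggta
The windows of UGCG and GPC2 each hold 3 GC boxes and that of L1CAM holds 4; a second, overlapping L1CAM window (chrX:153875965-153876264) holds 2, and 45% of all 35116 windows in the RefSeq table hold at least 1. Windows were found for 6 of the 9 genes, 12 windows in all. They were also searched on both strands for an E-box (CACGTG), a FOXO motif (GTAAACA), a CRE (TGACGTCA) and a TATA box (TATAAA); none of these motifs contains another. Of these, 1 matched, the CRE, in 2 overlapping windows of ST3GAL5 (chr2:85888941-85889240 and chr2:85888985-85889284, minus strand), and 1.85% of all windows hold it. The shares of all windows with an E-box, a FOXO motif and a TATA box were 7.26%, 3.42% and 11.5%. A match is only a match of letters, and the absence of one concerns this window alone.

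Levels of different genes can be compared only per length, here as CPM per kilobase of the longest transcript. With DMSO, L1CAM (65.4 ± 5.97) and NCAM1 (63.5 ± 3.61; SD, n = 3) were highest and did not differ beyond their spread. That depends on the length used: per kilobase of all exons joined, L1CAM stood at 46.2 and NCAM1 at 30.1 CPM, and the order of the other genes below was the same. CD276 followed at 33.9 ± 1.65, B4GALNT1 at 25.3 ± 1.18, GPC2 at 17.7 ± 0.547 and UGCG at 10.5 ± 0.484. ST3GAL5 stood at 4.001 ± 0.206 and ST8SIA1 at 0.687 ± 0.0736 CPM per kilobase, so the RNA of the GD3 synthase was the scarcest of the 8 tested genes and that of the GD2 synthase B4GALNT1 stood above those of UGCG and ST3GAL5. B4GALT6 was near 0, at 0.0191 ± 0.0249 CPM per kilobase, while its sister enzyme B4GALT5, which makes the same lactosylceramide, stood at 32.7, above B4GALNT1.

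In bulk RNA, a change of RNA per cell cannot be told apart from a change in the share of cells that carry it. Of the 8 tested genes, 6 changed with BEZ-235 & SAHA against DMSO at an adjusted p under 0.05, while 64.4% of all tested genes did. Of the 8, 4 were higher and 2 lower, beside 33.2% and 31.2% of all tested genes. With BEZ-235, 4 of the 8 changed, beside 50.9% of all; 1 was higher and 3 were lower, beside 25.5% and 25.4%. With SAHA, 5 of the 8 changed, beside 43.1% of all; 4 were higher and 1 was lower, beside 22.2% and 20.9%. For BEZ-235 & SAHA and for BEZ-235 the count of these genes is near the background. For SAHA it is above, but with 8 genes the difference is small, and it was not tested. Against BEZ-235 alone both drugs changed 7 of the 8, 5 higher and 2 lower, beside 58.0% of all tested genes (29.5% higher, 28.5% lower), and against SAHA alone 6 of the 8, 2 higher and 4 lower, beside 58.8% (29.9% higher, 28.9% lower).

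With the correction 5 of the 8 passed in BEZ-235 & SAHA against DMSO, 5 in BEZ-235 and 6 in SAHA, beside 65.5%, 56.0% and 49.8% of all tested genes. Both drugs against BEZ-235 and against SAHA then gave 7 and 5 of the 8, beside 55.9% and 52.3%. The libraries of the 2 groups did not overlap for 7 of the 8 in BEZ-235 & SAHA against DMSO, for 6 in BEZ-235 and for 6 in SAHA, where 66.2%, 59.2% and 54.2% of all tested genes did not. Both drugs did not overlap BEZ-235 for 7 of the 8, beside 62.0%, nor SAHA for 5, beside 63.0%. The median log2 fold change of the 8 was 0.26 with both drugs, -0.09 with BEZ-235 and 0.29 with SAHA, against 0.03, 0.02 and -0.01 over all tested genes. With the correction these medians were 0.09, -0.01 and 0.40. All comparisons against DMSO share the same 3 DMSO libraries.

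**Figure D1:**
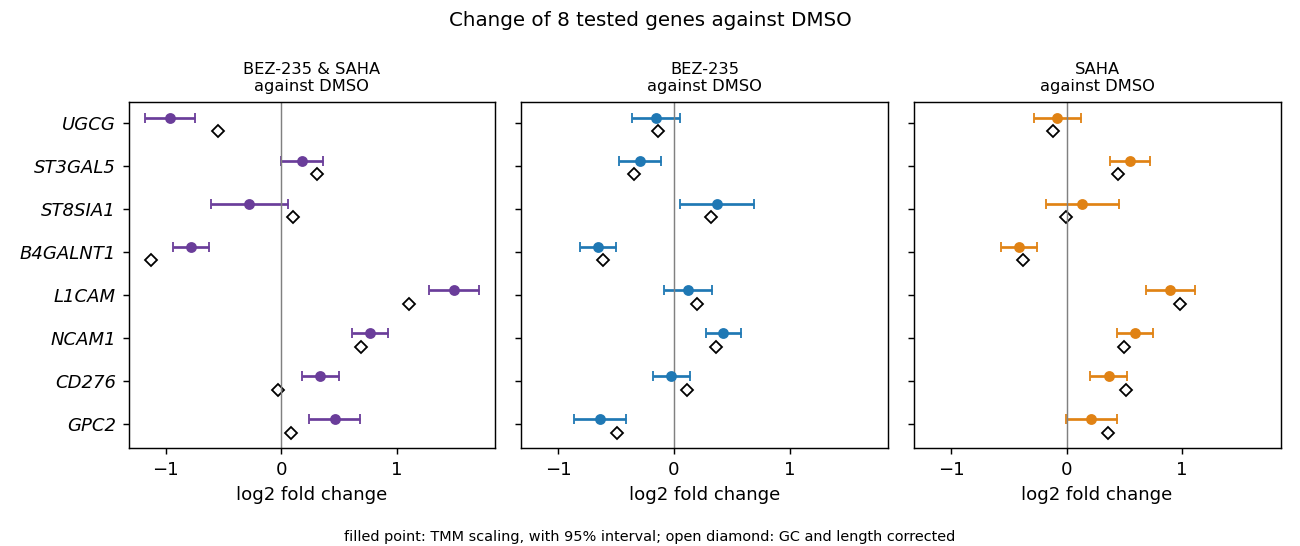
Log2 fold change (x axis) of the 8 tested genes in BEZ-235 & SAHA, BEZ-235 and SAHA against DMSO, 3 libraries per group. Filled points are the TMM-scaled values with 95% intervals and open diamonds the values corrected for GC content and transcript length. With both drugs the points run from UGCG at -0.96 to L1CAM at 1.49, and the diamonds of CD276 and GPC2 lie near 0.

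UGCG (ENSG00000148154; chromosome 9, 111896766 to 111935369, plus strand), the enzyme that commits ceramide to glycolipids, fell with the drugs combined and passed with neither alone. It measured 22.4, 23.6 and 18.6 CPM with BEZ-235 & SAHA, 36.1, 37.9 and 38.9 CPM with BEZ-235, 38.8, 36.4 and 44.0 CPM with SAHA, and 41.2, 40.5 and 44.1 CPM with DMSO. Every library with both drugs lay below the other 9. Its log2 fold change was -0.96 ± 0.10 (SE) in BEZ-235 & SAHA against DMSO (adjusted p = 3.76e-07), a 1.95-fold lower level, and -0.55 ± 0.08 corrected (adjusted p = 6.67e-06). It also fell against BEZ-235 alone, by 0.81 ± 0.10 on the log2 scale (adjusted p = 4.62e-06; corrected -0.42), and against SAHA alone, by 0.89 ± 0.10 (adjusted p = 1.56e-06; corrected -0.43). BEZ-235 alone gave -0.15 with a 95% interval of -0.36 to 0.05, although its 3 libraries lay below those with DMSO. SAHA alone gave -0.08, with an interval of -0.28 to 0.12 and overlapping libraries.

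The next step showed nearly no B4GALT6 (ENSG00000118276; chromosome 18, 31622247 to 31685836, minus strand) RNA. It had 2, 1 and 0 counts with BEZ-235 & SAHA, 1, 3 and 0 with BEZ-235, 7, 13 and 3 with SAHA and 4, 0 and 1 with DMSO, at most 0.360 CPM in any library. The 13 counts come from the deepest library, and with no filter no comparison passed (adjusted p 0.147 to 1). B4GALT5 held 143 CPM with BEZ-235 & SAHA, 132 CPM with BEZ-235, 183 CPM with SAHA and 154 CPM with DMSO. It fell with BEZ-235 (-0.22 ± 0.07, adjusted p = 0.0202) and rose with SAHA (0.24 ± 0.07, adjusted p = 0.0141). With both drugs it gave -0.11 ± 0.07 (adjusted p = 0.222; corrected -0.14, adjusted p = 0.04999).

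ST3GAL5 (ENSG00000115525; chromosome 2, 85837120 to 85905199, minus strand), the GM3 synthase, moved in opposite directions with each drug alone. It measured 29.4, 28.3 and 26.4 CPM with BEZ-235 & SAHA, 21.4, 18.8 and 20.3 CPM with BEZ-235, 35.1, 37.0 and 36.4 CPM with SAHA, and 23.6, 26.1 and 24.5 CPM with DMSO. The 4 groups did not overlap, SAHA being highest and BEZ-235 lowest. It fell with BEZ-235 by 0.29 ± 0.09 on the log2 scale (adjusted p = 0.00966) and rose with SAHA by 0.55 ± 0.08 (adjusted p = 6.19e-05), a 1.46-fold higher level. Both drugs together gave 0.18 ± 0.09 against DMSO (adjusted p = 0.0736), and passed with the correction (0.31 ± 0.08, adjusted p = 0.00254) and with a stricter filter (adjusted p = 0.0427). Against BEZ-235 the combination was higher, by 0.47 ± 0.09 (adjusted p = 0.000189). Against SAHA it was lower, by -0.37 ± 0.08 (adjusted p = 0.00121), a call that the correction ended (-0.14, adjusted p = 0.138).

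ST8SIA1 (ENSG00000111728; chromosome 12, 22063773 to 22437041, minus strand), the GD3 synthase, had the fewest counts of the tested genes, 94 to 578 per library. It measured 6.49, 5.19 and 4.92 CPM with BEZ-235 & SAHA, 9.65, 8.08 and 8.21 CPM with BEZ-235, 8.49, 7.27 and 6.42 CPM with SAHA, and 5.85, 7.11 and 7.07 CPM with DMSO. The BEZ-235 libraries lay above those with DMSO and those with both drugs; the combination overlapped DMSO and SAHA. No comparison with DMSO passed: the log2 fold changes were 0.37 ± 0.15 with BEZ-235 (adjusted p = 0.0512), 0.14 ± 0.15 with SAHA (adjusted p = 0.486; corrected -0.0038) and -0.28 ± 0.16 with both drugs (adjusted p = 0.132; corrected 0.10). BEZ-235 passed with a stricter filter (adjusted p = 0.0471), in a fit of the compared groups only (adjusted p = 0.0476) and without BEZ-235 & SAHA replicate 1 (adjusted p = 0.0450), and so did both drugs without their replicate 1 (-0.42, adjusted p = 0.0367). The combination was lower than BEZ-235 alone (-0.65 ± 0.15, adjusted p = 0.00186) and than SAHA alone (-0.41 ± 0.15, adjusted p = 0.0278). Neither call held with the correction (-0.22, adjusted p = 0.251, and 0.10, adjusted p = 0.597). The one against SAHA was also lost without SAHA replicate 1, SAHA replicate 2, BEZ-235 & SAHA replicate 2 or BEZ-235 & SAHA replicate 3, with adjusted p of 0.0599 to 0.0972.

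B4GALNT1 (ENSG00000135454; chromosome 12, 57623410 to 57633355, minus strand), the enzyme that makes GD2 itself, fell in every treated group. It measured 75.0, 86.5 and 85.2 CPM with BEZ-235 & SAHA, 92.0, 85.9 and 91.3 CPM with BEZ-235, 108, 106 and 105 CPM with SAHA, and 146, 134 and 145 CPM with DMSO. All 9 treated libraries lay below all 3 with DMSO. The log2 fold changes against DMSO were -0.78 ± 0.07 with both drugs (adjusted p = 1.04e-07; corrected -1.13), -0.66 ± 0.07 with BEZ-235 (adjusted p = 1.58e-06) and -0.41 ± 0.07 with SAHA (adjusted p = 0.000226), that is 1.72-fold, 1.58-fold and 1.33-fold lower levels. Both drugs were lower than SAHA alone by -0.37 ± 0.07 (adjusted p = 0.000395; corrected -0.75). Against BEZ-235 alone, whose libraries overlapped, the value was -0.13 ± 0.07 (adjusted p = 0.157) and passed only with the correction (-0.52, adjusted p = 1.31e-06). In the 3 comparisons of both drugs, the correction moved B4GALNT1, with a GC-rich transcript, further down and UGCG, with an AT-rich one, less far down.

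**Figure D2:**
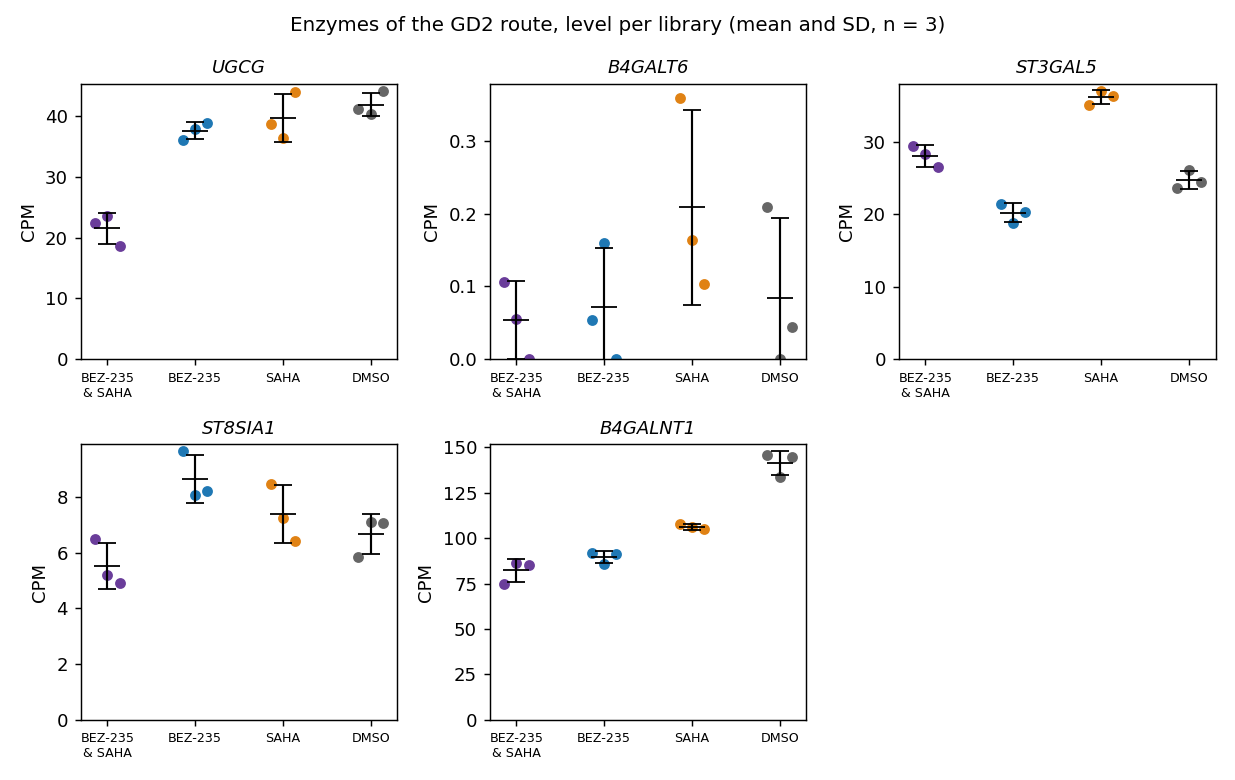
Levels of the 5 route enzymes in CPM (y axis, from 0, with a scale for each gene) in BEZ-235 & SAHA, BEZ-235, SAHA and DMSO; points are libraries, bars the mean and SD of 3. UGCG is lowest with both drugs, ST3GAL5 is highest with SAHA, B4GALNT1 is highest with DMSO, and B4GALT6 stays at or below 0.360 CPM.

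L1CAM (ENSG00000198910; chromosome X, 153861514 to 153886174, minus strand), a neurite adhesion protein of the immunoglobulin family, had the largest rise among the tested genes described here. It measured 844, 968 and 1027 CPM with BEZ-235 & SAHA, 396, 359 and 340 CPM with BEZ-235, 693, 608 and 578 CPM with SAHA, and 367, 306 and 335 CPM with DMSO. Libraries with both drugs lay above those with SAHA, which lay above the overlapping BEZ-235 and DMSO libraries. The log2 fold change was 1.49 ± 0.10 with both drugs (adjusted p = 1.95e-09; corrected 1.11), a 2.82-fold higher level, and 0.90 ± 0.10 with SAHA (adjusted p = 2.47e-06), 1.86-fold. With BEZ-235 it was 0.12 ± 0.10 (adjusted p = 0.333) and passed only with the correction (0.20, adjusted p = 0.0159). Both drugs were higher than BEZ-235 alone by 1.37 ± 0.10 (adjusted p = 1.67e-08; corrected 0.91). They were higher than SAHA alone by 0.60 ± 0.10 (adjusted p = 7.55e-05), which fell to 0.13 with the correction (adjusted p = 0.112). Within the combination L1CAM stood in the order of the libraries' GC slopes, 844, 968 and 1027 CPM at slopes of 0.197, 0.328 and 0.450.

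NCAM1 (ENSG00000149294; chromosome 11, 112961247 to 113278436, plus strand), the neural cell adhesion molecule CD56, rose in every treated group. It measured 641, 656 and 659 CPM with BEZ-235 & SAHA, 525, 487 and 536 CPM with BEZ-235, 598, 581 and 556 CPM with SAHA, and 399, 359 and 394 CPM with DMSO. The 4 groups did not overlap. Against DMSO the log2 fold changes were 0.77 ± 0.07 with both drugs (adjusted p = 1.32e-07), 0.43 ± 0.07 with BEZ-235 (adjusted p = 0.000133) and 0.59 ± 0.07 with SAHA (adjusted p = 7.83e-06), or 1.70-fold, 1.34-fold and 1.51-fold. The combination was above BEZ-235 alone by 0.34 ± 0.07 (adjusted p = 0.000828). Against SAHA alone the value was 0.17 ± 0.07 (adjusted p = 0.0502), which passed with the correction (0.19, adjusted p = 0.00868), with DESeq2 (adjusted p = 0.0168), with a stricter filter (adjusted p = 0.0481) and with unrounded counts (adjusted p = 0.0494).

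CD276 (ENSG00000103855; chromosome 15, 73683966 to 73714518, plus strand), an immune checkpoint protein of the B7 family, was higher with SAHA, alone or combined, before the correction. It measured 140, 147 and 158 CPM with BEZ-235 & SAHA, 120, 119 and 108 CPM with BEZ-235, 156, 142 and 156 CPM with SAHA, and 118, 123 and 112 CPM with DMSO. All 6 libraries with SAHA lay above all 6 without it. It rose by 0.33 ± 0.08 with both drugs (adjusted p = 0.000997) and by 0.36 ± 0.08 with SAHA (adjusted p = 0.000968; corrected 0.51). The correction took the first of these to -0.03 (adjusted p = 0.669). Both drugs against BEZ-235 gave 0.36 ± 0.08 (adjusted p = 0.000714), and -0.14 corrected (adjusted p = 0.0486), a call that a replicate block added to the correction ended (adjusted p = 0.0714). Both drugs against SAHA alone gave -0.03 ± 0.08 (adjusted p = 0.762), and -0.54 corrected (adjusted p = 5.92e-07). With BEZ-235 alone the value was -0.02, with a 95% interval of -0.18 to 0.14 (corrected 0.11, adjusted p = 0.117). The rise with SAHA alone is thus the change in CD276 that stood with and without the correction.

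GPC2 (ENSG00000213420; chromosome 7, 100169606 to 100177372, minus strand), a glypican of developing neurons, fell with BEZ-235 alone. It measured 54.0, 58.4 and 72.9 CPM with BEZ-235 & SAHA, 31.9, 27.2 and 27.4 CPM with BEZ-235, 55.3, 52.1 and 48.7 CPM with SAHA, and 45.9, 45.5 and 43.3 CPM with DMSO. The BEZ-235 libraries lay below all others, and the combination overlapped SAHA and lay above DMSO. The log2 fold change was -0.64 ± 0.11 with BEZ-235 (adjusted p = 0.000112), a 1.56-fold lower level. With both drugs it was 0.46 ± 0.10 (adjusted p = 0.00100), and 0.08 corrected (adjusted p = 0.307). With SAHA it was 0.21 ± 0.10 (adjusted p = 0.111), which passed with the correction (0.35, adjusted p = 0.000268), in a fit of the compared groups only (adjusted p = 0.0355) and without BEZ-235 & SAHA replicate 3 (adjusted p = 0.0475). Adding SAHA to BEZ-235 gave 1.10 ± 0.11 (adjusted p = 3.28e-07; corrected 0.57, adjusted p = 2.47e-06), a 2.15-fold higher level. The value of 0.25 ± 0.10 against SAHA alone (adjusted p = 0.0470) was lost without any 1 library other than BEZ-235 & SAHA replicate 1, with adjusted p of 0.0662 to 0.407, and with RLE scaling, DESeq2, no filter, the compared groups only or a replicate block (adjusted p 0.0527 to 0.203). It turned to -0.27 with the correction (adjusted p = 0.00198). In the combination GPC2, like L1CAM, CD276 and NCAM1, stood in the order of the GC slopes. ST3GAL5 and ST8SIA1 stood in the reverse order. B4GALNT1 (75.0, 86.5 and 85.2 CPM) and UGCG (22.4, 23.6 and 18.6 CPM) stood in neither. The share of all tested genes in either order was not computed.

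**Figure D3:**
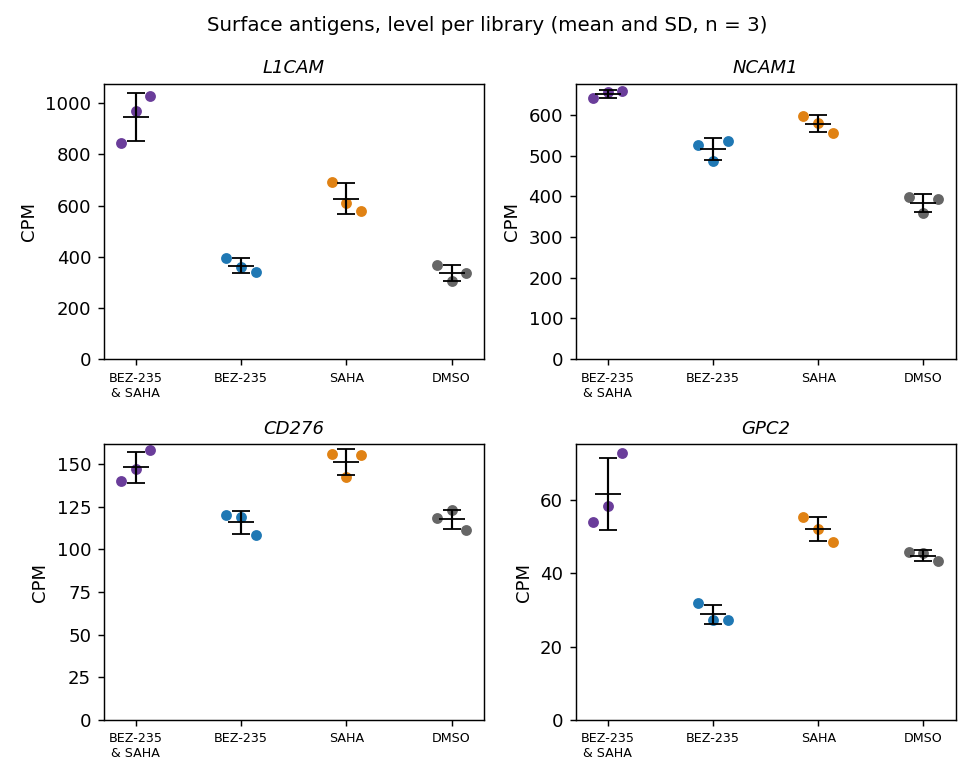
Levels of the 4 surface antigens in CPM (y axis, from 0, with a scale for each gene) in BEZ-235 & SAHA, BEZ-235, SAHA and DMSO; points are libraries, bars the mean and SD of 3. L1CAM and NCAM1 are highest with both drugs, CD276 is higher in the 6 libraries with SAHA than in the 6 without, and GPC2 is lowest with BEZ-235.

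Reads of neighbouring genes could touch several of these values. B4GALNT1 and NCAM1 had fractional counts in all 12 libraries, L1CAM in 7 and ST8SIA1 in 2, which RSEM gives where reads were shared between genes. SLC26A10 lies opposite B4GALNT1, CMAS opposite ST8SIA1, NCAM1-AS1 opposite NCAM1, ST3GAL5-AS1 opposite ST3GAL5 and LCA10 opposite L1CAM. The strand setting of the counting is not given in the sources used here. U52112.1, a protein-coding gene, overlaps L1CAM on the same strand, where counting by strand would not separate their reads. Among these genes it is the only protein-coding overlap on the same strand.

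Whether SAHA acted differently in the presence of BEZ-235 was tested with an interaction, the SAHA effect with BEZ-235 minus that without it. Of the 8 genes 5 passed, beside 38.4% of all tested genes; 3 were higher and 2 lower, beside 18.9% and 19.6%, and with the correction 1 of 8 passed, beside 19.0%. UGCG (-0.73 ± 0.14, adjusted p = 0.000992) and ST8SIA1 (-0.78 ± 0.21, adjusted p = 0.00904) were below the sum of the single effects, and corrected they were at -0.30 (adjusted p = 0.0563) and -0.22 (adjusted p = 0.532). GPC2 was above it by 0.89 ± 0.15 (adjusted p = 0.000415; corrected 0.22, adjusted p = 0.122). L1CAM (0.48 ± 0.14, adjusted p = 0.0131) and B4GALNT1 (0.29 ± 0.10, adjusted p = 0.0366) turned to -0.07 (adjusted p = 0.634) and -0.14 (adjusted p = 0.254). CD276 is the gene that passed with the correction: its interaction was -0.01 ± 0.11 (adjusted p = 0.976) without it and -0.65 ± 0.08 with it (adjusted p = 6.54e-05). NCAM1 gave -0.25 ± 0.10 (adjusted p = 0.0620), which passed with DESeq2 (adjusted p = 0.0104) and without BEZ-235 replicate 2 (-0.30, adjusted p = 0.0477). ST3GAL5 gave -0.07 ± 0.12 (adjusted p = 0.656; corrected 0.21). Without DMSO replicate 1 the call of L1CAM was lost (0.40, adjusted p = 0.0527). That of B4GALNT1 was lost without any 1 library other than DMSO replicate 2 and BEZ-235 & SAHA replicate 1 (adjusted p 0.0510 to 0.109), with no filter (adjusted p = 0.256) and with a replicate block (adjusted p = 0.0659).

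**Figure D4:**
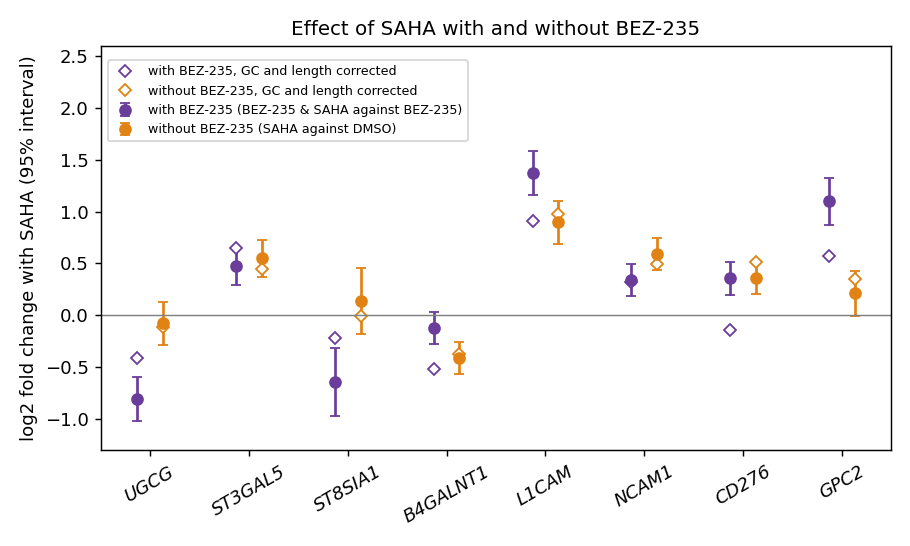
Log2 fold change with SAHA (y axis) of the 8 tested genes with BEZ-235 present (BEZ-235 & SAHA against BEZ-235) and without it (SAHA against DMSO), 3 libraries per group. Filled points are TMM-scaled values with 95% intervals, open diamonds the corrected values. For UGCG the points stand at -0.81 and -0.08 and for GPC2 at 1.10 and 0.21, and the diamonds of these genes lie closer together.

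Ceramide is the substrate of UGCG, and the list for its synthesis also holds COL4A3BP, which carries ceramide and does not make it. COL4A3BP was higher with both drugs, with BEZ-235 and with SAHA, and is counted here. Of the list 12 genes were tested. With both drugs 6 were higher and 5 lower, with BEZ-235 5 higher and 3 lower, and with SAHA 4 higher and 1 lower; the list's median log2 fold changes were 0.25, 0.14 and 0.06. Here and for the lists below, the shares of all tested genes are 33.2% higher and 31.2% lower with both drugs, 25.5% and 25.4% with BEZ-235, and 22.2% and 20.9% with SAHA. These are uncorrected. Corrected shares were computed in either direction only, at 65.5% with both drugs, 56.0% with BEZ-235 and 49.8% with SAHA. With the correction the ceramide counts were 6 higher and 3 lower, 6 and 3, and 4 and 1. CERS4, a ceramide synthase, measured 19.1 ± 0.911 CPM with both drugs, 12.7 ± 2.28 CPM with BEZ-235, 5.39 ± 0.280 CPM with SAHA and 3.46 ± 0.487 CPM with DMSO (SD, n = 3), log2 changes of 2.47, 1.88 and 0.63 (adjusted p 5.69e-10, 3.67e-08 and 0.00324). CERS6, another ceramide synthase, fell with both drugs (-1.10 ± 0.11, adjusted p = 1.51e-07; corrected -0.79), as did the desaturase DEGS1 (-0.73 ± 0.07, adjusted p = 1.87e-07; corrected -0.50). Among 12 genes that supply sialic acid and sugar donors none was higher and 8 were lower with both drugs (33.2% and 31.2% of all tested genes), with a median of -0.41; with the correction 2 were higher and 5 lower and the median was -0.03. NANP, a phosphatase of sialic acid synthesis, fell by 1.26 ± 0.13 on the log2 scale with both drugs (adjusted p = 2.23e-07; corrected -0.78).

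Of 10 tested genes that extend or modify gangliosides beyond GD2 and GM2, 4 were higher and 5 lower with both drugs, 4 higher and 1 lower with BEZ-235, and 1 higher and 6 lower with SAHA; corrected, 3 and 4, 5 and 1, and 1 and 6. ST8SIA3, a sialyltransferase related to the GD3 synthase, rose with BEZ-235 (0.61 ± 0.08, adjusted p = 1.15e-05) and fell with SAHA (-0.57 ± 0.08, adjusted p = 3.27e-05) and with both (-1.11 ± 0.08, adjusted p = 8.80e-09). CASD1, which O-acetylates sialic acid and so makes O-acetyl GD2, fell with both drugs by 1.83 ± 0.18 (adjusted p = 9.15e-07; corrected -1.26). A list of other glycosphingolipid genes holds branches that compete for lactosylceramide and ceramide, but also B4GALT5, which makes lactosylceramide for this route. Of its genes 6 were tested. With both drugs 1 was higher and 3 lower, with BEZ-235 3 were lower, and with SAHA 3 were higher and 2 lower. These counts include B4GALT5, lower with BEZ-235 and higher with SAHA. Corrected, both drugs gave 1 higher and 4 lower, with B4GALT5 among the lower. A4GALT, the globotriaosylceramide synthase, rose but stayed low, at 1.96 ± 0.887 CPM with both drugs and 1.02 ± 0.0542 CPM with SAHA, against 0.193 ± 0.0874 CPM with DMSO (SD, n = 3; log2 changes 3.34 and 2.39, adjusted p 3.41e-06 and 0.000304). Of 13 genes for breakdown, 7 were higher and 3 lower with both drugs, 2 higher and 3 lower with BEZ-235, and 7 higher and none lower with SAHA (22.2% and 20.9% of all tested genes). Corrected, these counts were 7 and 3, 4 and 4, and 7 and 2. PSAP, the saposin precursor, rose with SAHA by 0.93 ± 0.08 (adjusted p = 3.36e-07) and the GM2 activator GM2A by 0.75 ± 0.08 (adjusted p = 2.90e-06).

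Both enzymes that put polysialic acid on NCAM1 rose with SAHA, ST8SIA2 by 0.63 ± 0.08 (adjusted p = 1.43e-05) and ST8SIA4 by 0.56 ± 0.10 (adjusted p = 0.000207). With both drugs ST8SIA2 rose (0.50 ± 0.08, adjusted p = 5.44e-05; corrected 0.33), and ST8SIA4 fell (-0.27 ± 0.10, adjusted p = 0.0249) but was higher with the correction (0.32, adjusted p = 0.00345). Of 4 names listed as relatives of L1CAM and NCAM1, 1 (NFASN) matched no gene name, so that relative was not examined. Of the 3 found 2 were tested, and both rose with SAHA and with both drugs. NCAM2 measured 89.6 ± 7.65 CPM with both drugs, 19.3 ± 1.34 CPM with BEZ-235, 80.0 ± 2.63 CPM with SAHA and 17.3 ± 0.321 CPM with DMSO (SD, n = 3), which is 5.17-fold and 4.61-fold higher than DMSO with both drugs and with SAHA (adjusted p 1.67e-12 and 5.90e-11; corrected log2 changes 3.04 and 2.18). NRCAM rose by 1.05 ± 0.10 with both drugs (adjusted p = 1.94e-07) and 1.21 ± 0.10 with SAHA (adjusted p = 1.60e-07). Of 3 tested relatives of GPC2, GPC1 fell with BEZ-235 (-0.78 ± 0.20, adjusted p = 0.00628; corrected -0.50) and GPC6 with both drugs (-0.80 ± 0.12, adjusted p = 2.79e-05; corrected -0.50), and none changed with SAHA. Only 2 of 8 other B7 genes had enough counts to be tested. VTCN1 (0.95 ± 0.33, adjusted p = 0.0249) and NCR3LG1 (0.53 ± 0.14, adjusted p = 0.00656) rose with BEZ-235, and neither passed with SAHA or with both drugs. VTCN1 stayed low, at 0.890 ± 0.199 CPM with BEZ-235 and 0.465 ± 0.101 CPM with DMSO (SD, n = 3).

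Among 13 tested genes of other surface targets proposed in neuroblastoma, 1 was higher and 7 lower with both drugs, 2 higher and 8 lower with BEZ-235, and 4 higher and 4 lower with SAHA, beside 33.2% and 31.2%, 25.5% and 25.4%, and 22.2% and 20.9% of all tested genes. Corrected, the counts were 2 and 9, 2 and 8, and 5 and 4, beside 65.5%, 56.0% and 49.8% of all tested genes in either direction. SSTR2, the somatostatin receptor used for imaging and radioligand therapy, measured 165 ± 10.9 CPM with both drugs, 85.7 ± 6.45 CPM with BEZ-235, 273 ± 3.79 CPM with SAHA and 148 ± 9.18 CPM with DMSO (SD, n = 3). It rose with SAHA (0.89 ± 0.08, adjusted p = 2.31e-07), fell with BEZ-235 (-0.79 ± 0.08, adjusted p = 5.03e-07) and gave 0.16 ± 0.08 with both drugs (adjusted p = 0.0912). SLC6A2, the noradrenaline transporter that takes up MIBG, was low throughout and fell with SAHA (-1.96 ± 0.31, adjusted p = 9.84e-05). It measured 0.361 ± 0.0902 CPM with SAHA and 1.48 ± 0.224 CPM with DMSO (SD, n = 3). TFRC, the transferrin receptor, fell 7.55-fold with both drugs and 5.32-fold with BEZ-235 (adjusted p 6.99e-12 and 7.95e-11). CD44, a hyaluronan receptor, rose with BEZ-235 (1.37 ± 0.08, adjusted p = 4.80e-10) and fell with SAHA (-0.47 ± 0.08, adjusted p = 0.000137). CD24, a small sialylated surface protein, rose with SAHA (0.54 ± 0.09, adjusted p = 0.000112) and fell with both drugs (-0.94 ± 0.09, adjusted p = 1.08e-07). The 1 gene of this list higher with both drugs was FGFR4 (4.78 ± 0.56, adjusted p = 4.80e-06; corrected 4.35). FGFR4 also rose with BEZ-235 (1.80 ± 0.68, adjusted p = 0.0403). It stayed low, at 5.85 ± 1.45 CPM with both drugs, 0.746 ± 0.377 CPM with BEZ-235 and 0.214 ± 0.186 CPM with DMSO (SD, n = 3).

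**Figure D5:**
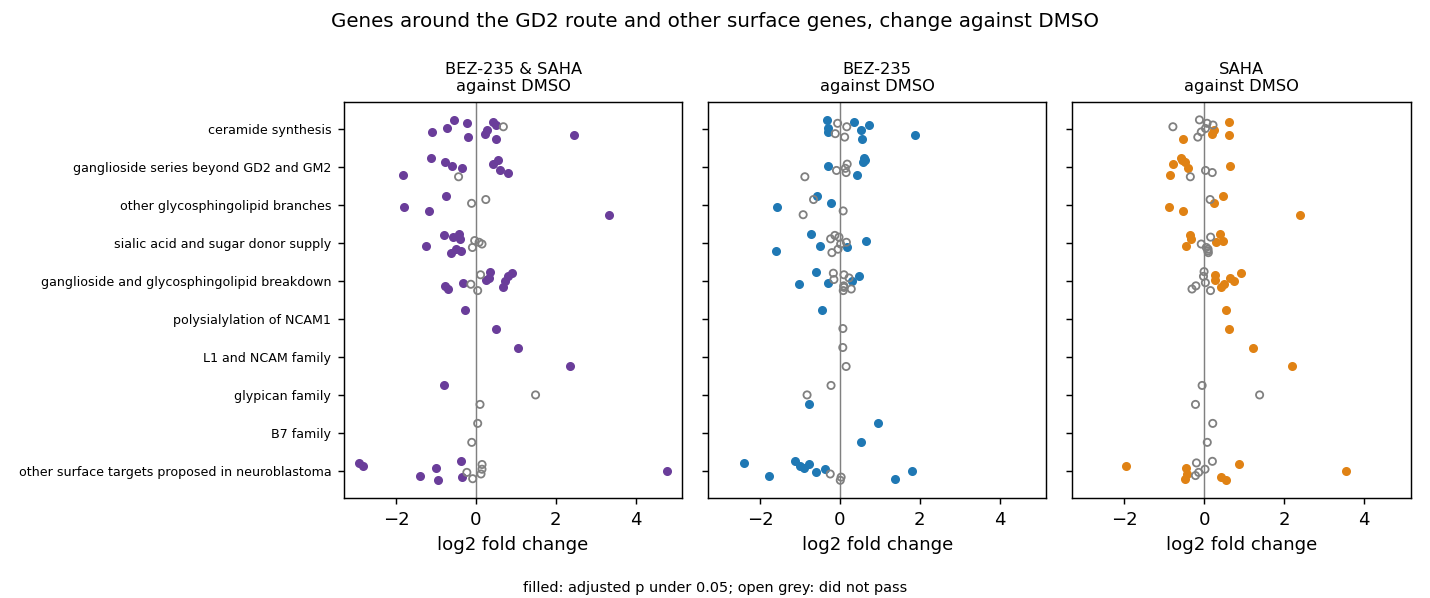
Log2 fold change (x axis) of the tested genes of 10 lists around the GD2 route and the antigens (rows) in BEZ-235 & SAHA, BEZ-235 and SAHA against DMSO, 3 libraries per group; each point is a gene, filled where its adjusted p was under 0.05. With both drugs 8 of 12 sugar donor genes are filled and left of 0 (5 of 12 with the correction), and with SAHA 7 of 13 breakdown genes are filled and right of 0.

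Over the 12 libraries, the genes whose log2 CPM ran most like each of these, among 10461 compared, had the following Pearson correlations. The points share libraries and the 4 groups, so the values describe the pattern only. The log2 CPM were not corrected for GC content and length. L1CAM was closest to PTPRN (0.996), LRP10 (0.991) and TMEM63B (0.991), and NCAM1 to SCN3B (0.989), HS6ST3 (0.987) and CLMN (0.984). GPC2 was closest to FAM234A (0.988), TYRO3 (0.988) and PACSIN3 (0.982), and CD276 to HLA-B (0.975), CRADD (0.971) and FNDC4 (0.959). UGCG was closest to TMEM167A (0.989), LSM5 (0.988) and MDM2 (0.987), ST3GAL5 to TBC1D1 (0.985), SSTR2 (0.984) and GUCY1B1 (0.984), and B4GALNT1 to TOP3A (0.985), LDB3 (0.982) and DPP3 (0.979). ST8SIA1, the least abundant, had lower best values: GOLGA4 (0.909), ZNF182 (0.905) and GLT8D1 (0.903).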

How the data were processed

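Gene-level RNA-seq of 12 libraries was used. Per the submitters' processing notes, reads were aligned with STAR and quantified with RSEM on hg38; tool versions and gene models: not given in the sources used here. Per the labels' protocols, a stranded poly(A) kit was used. The authors deposited expected counts (estimated counts per gene), not scaled for depth or length, of which 80.07 to 84.75% per library were whole; no libraries were identical.

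From these, values were rounded and fitted in edgeR 4.0.16 (R 4.3.3; TMM scaling, filterByExpr, robust quasi-likelihood test, 4 group means, 8 residual degrees of freedom). P-values are 2-sided and Benjamini-Hochberg adjusted over 17774 genes; calls are at 0.05. CPM use TMM-scaled totals. Names, positions (1-based, hg38), GC content and length of the longest transcript came from GENCODE release 29, with 57447 identifiers matched. The correction uses offsets per library from splines on GC content and length. The biological coefficient of variation was 10.6%, and the scripts were tested on simulated data. Alternatives were RLE scaling, DESeq2 1.42.0, other filters, unrounded counts, compared groups only, a replicate block and leaving out each library. The genes and lists were chosen with earlier results of these data known. The text names, from each list and comparison with DMSO, genes among the 2 called per direction of smallest p. B4GALT5, COL4A3BP, the other values of these genes in further comparisons, and the marker genes were added for context. For likeness, it names the 3 genes of highest correlation among those whose mean log2 CPM was 3 or more.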

Additional observations from a re-analysis of the deposited data

Results flagged for a closer look

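For 5 of the 8 tested genes the SAHA effect with BEZ-235 differed from the SAHA effect without it. The test was the interaction at an adjusted p under 0.05, which 38.4% of all tested genes passed. The differences were 0.89 for GPC2, 0.48 for L1CAM, 0.29 for B4GALNT1, -0.73 for UGCG and -0.78 for ST8SIA1, on the log2 scale. With GC content and length corrected they were 0.22, -0.07, -0.14, -0.30 and -0.22, and none passed. The part of the GC trend of the combination libraries in these differences cannot be told apart from the treatment.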

How the results depend on the processing

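Of 1000 recomputed values of these genes, 899 kept their direction and their side of the threshold, and 28 turned direction. Among the rest, which kept their direction, 47 lost and 26 gained a call. Some of the 28 also lost a call, such as CD276 in both drugs against DMSO with the correction. The GC and length correction moved most: the interaction then called 3382 genes and 1 of the 8 tested here, against 6834 and 5, and with the replicate block added it called 2871 and 1. Values that turned, corrected and then corrected with the replicate block, were 0.11 and 0.11 for CD276 in BEZ-235 against DMSO, -0.0038 and -0.012 for ST8SIA1 in SAHA against DMSO, 0.10 and 0.090 for ST8SIA1 and -0.030 and -0.030 for CD276 in both drugs against DMSO, -0.14 and -0.14 for CD276 in both drugs against BEZ-235, and 0.10 and 0.10 for ST8SIA1 and -0.27 and -0.28 for GPC2 in both drugs against SAHA. In the interaction they were -0.14 and -0.14 for B4GALNT1, 0.21 and 0.21 for ST3GAL5 and -0.071 and -0.072 for L1CAM. Leaving out 1 library gave CD276 -0.072 to 0.012 in BEZ-235 against DMSO and -0.059 to 0.031 in the interaction, and 3 to 5 interaction calls among the 8, with 3 without DMSO replicate 1. The cause was not tested. The replicate numbers shared across groups showed no clear pairing of the libraries: 1 of 18 same-number correlations of deviations was over 0.1, and 1 of 12 libraries correlated best with its own number. With 3 libraries per group, these correlations cannot exclude shared culture days or batches. With the replicate block the GPC2 value in both drugs against SAHA (0.25) and the B4GALNT1 interaction (0.29) lost their calls and no other did; added to the correction, it ended the corrected call of CD276 in both drugs against BEZ-235 (adjusted p = 0.0714). ST8SIA1 and B4GALT6 are the values that depth limits most.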

Other observations

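The ratio of RNA between enzymes of the route can be read within a library, and it does not measure their activity. The log2 ratio of ST8SIA1 to ST3GAL5 CPM was -2.18, -2.45 and -2.43 with BEZ-235 & SAHA, -1.15, -1.22 and -1.31 with BEZ-235, -2.05, -2.35 and -2.50 with SAHA, and -2.01, -1.88 and -1.79 with DMSO. BEZ-235 alone thus stood highest, without overlap with the other 9 libraries. The log2 ratio of B4GALNT1 to ST3GAL5 CPM was 1.35, 1.61 and 1.69 with both drugs, 2.10, 2.19 and 2.17 with BEZ-235, 1.62, 1.52 and 1.53 with SAHA, and 2.63, 2.36 and 2.56 with DMSO, so all 9 treated libraries lay below those with DMSO. These ratios were neither corrected for GC content and length nor tested. The longest transcript of B4GALNT1 holds 58.3% G and C and that of ST3GAL5 44.2%, and with both drugs their ratio stood in the order of the GC slopes. In BEZ-235 & SAHA against DMSO the correction moved B4GALNT1 from -0.78 to -1.13 and ST3GAL5 from 0.18 to 0.31.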
